A study of Homo sapiens with 9 samples.

Results

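The 30 genes described here make the enzymes that turn acetoacetyl-CoA into cholesterol, with the prenyl and dolichol branches, and the proteins that carry or esterify sterols inside the cell. They were chosen by name, in pathway order, and all 30 were found among the 19317 genes of the table. All 30 also passed the filter on low counts. RNA came from HepG2, a long established human line of hepatocellular carcinoma cells, in a study that set up cell culture models of fatty liver (steatosis) and asked how a model with activated de novo lipogenesis differs. Each of the 3 groups had 3 libraries, and every group carried the same wild-type genotype and the same supplements of 10% serum and 1% antibiotics. WT was the control, in RPMI medium. DNL was moved to DMEM and received insulin at 10 µg/ml together with T0901317 at 10 µM for 1 week. T0901317 is a synthetic agonist of the liver X receptors (LXR), nuclear receptors that sense oxysterols. OA was moved to DMEM and received oleic acid at 25 µM, dissolved with 11% albumin, for 6 h. No group had DMEM alone or albumin alone, so the medium, its duration and the added compounds cannot be told apart in the comparisons against WT. DNL and OA were both in DMEM, and between them the compounds and the duration cannot be told apart. Nothing in the labels says that the replicates were separate cultures, so each p-value measures the spread between these libraries, which may be technical.

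Cholesterol is built in the endoplasmic reticulum and cytosol from acetyl-CoA. The early enzymes make isopentenyl diphosphate, which is joined into farnesyl diphosphate. That intermediate is either condensed to squalene, on the way to lanosterol and cholesterol, or passed to geranylgeranyl diphosphate and dolichol, which serve protein prenylation and glycosylation. Most genes of the sterol route are known targets of SREBP2, a transcription factor that is released from the endoplasmic reticulum when its sterol content falls, while LXR is known to drive sterol export. Hepatocytes are a main site of this synthesis and also store cholesterol as esters and take it up from lipoproteins.

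Promoter sequences are shown first, for 5 genes with large rises in DNL and for NUS1 and STARD3, which were lower there, because most members of the pathway were higher in both models. ACAT2, also among the largest rises, had no matched promoter, and PMVK, also lower in DNL, is not printed. The windows are from RefSeq (GRCh38.p14), read 5′ to 3′ on the strand of the gene. Each begins 250 bases before a RefSeq start of transcription and is cut where GENCODE release 29 annotates an exon. DHCR7 and HMGCS1 have 2 windows each, and a single window of each is printed. That of DHCR7 lies inside the gene as GENCODE annotates it. Capitals mark the CCAAT box (CCAAT, or ATTGG on the other strand) and the GC box (GGGCGG or CCGCCC), short promoter letters that many genes carry.
STARD4 (chr5:111512591-111512785, minus strand): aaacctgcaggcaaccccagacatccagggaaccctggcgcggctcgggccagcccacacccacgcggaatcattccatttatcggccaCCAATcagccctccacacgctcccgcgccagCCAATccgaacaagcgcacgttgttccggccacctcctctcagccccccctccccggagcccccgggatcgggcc
DHCR7 (chr11:71448436-71448643, minus strand): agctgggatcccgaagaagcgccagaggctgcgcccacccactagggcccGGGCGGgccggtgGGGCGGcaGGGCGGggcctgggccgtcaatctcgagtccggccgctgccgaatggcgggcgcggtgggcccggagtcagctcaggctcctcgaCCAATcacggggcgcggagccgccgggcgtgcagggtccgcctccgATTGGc
FDPS (chr1:155308616-155308747, plus strand): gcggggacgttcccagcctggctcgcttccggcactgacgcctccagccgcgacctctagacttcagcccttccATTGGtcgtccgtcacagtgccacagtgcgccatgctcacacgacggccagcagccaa
MSMO1 (chr4:165327419-165327622, plus strand): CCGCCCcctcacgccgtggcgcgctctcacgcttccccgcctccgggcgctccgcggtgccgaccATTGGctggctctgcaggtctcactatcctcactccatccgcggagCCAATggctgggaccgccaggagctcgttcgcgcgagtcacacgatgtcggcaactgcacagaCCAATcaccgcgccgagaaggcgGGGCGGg
HMGCS1 (chr5:43313513-43313662, minus strand): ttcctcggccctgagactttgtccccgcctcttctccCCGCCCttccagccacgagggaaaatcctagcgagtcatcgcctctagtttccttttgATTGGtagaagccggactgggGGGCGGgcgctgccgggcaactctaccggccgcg
NUS1 (chr6:117675219-117675468, plus strand): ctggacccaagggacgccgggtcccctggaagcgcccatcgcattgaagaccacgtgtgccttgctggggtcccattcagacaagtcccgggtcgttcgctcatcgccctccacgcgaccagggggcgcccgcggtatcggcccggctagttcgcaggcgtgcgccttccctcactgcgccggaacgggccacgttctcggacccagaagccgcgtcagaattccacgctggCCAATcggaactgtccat
STARD3 (chr17:39636894-39637064, plus strand): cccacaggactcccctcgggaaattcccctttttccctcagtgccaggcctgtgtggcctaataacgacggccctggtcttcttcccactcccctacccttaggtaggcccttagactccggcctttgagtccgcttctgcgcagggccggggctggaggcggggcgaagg
The MSMO1 stretch holds 3 CCAAT boxes and the STARD4 and DHCR7 stretches hold 2 each. FDPS, HMGCS1 and NUS1 have 1 each in the bases printed, and STARD3 has neither of the marked motifs there.

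RefSeq promoters were matched for 25 of the 30 genes, in 33 windows of 250 bases before the start. CCAAT, on either strand, was in 63.6% of these windows, against 32.0% of all 35116 promoters of the table and 33.0% of those of tested genes. GGGCGG was in 84.8% of them, against 42.6% of all promoters and 61.2% of those of tested genes. The E-box CACGTG was in 12.1%, which is 4 of 33 windows, against 6.34% of all promoters and 8.01% of those of tested genes. The sterol response element was searched as TCACCCCAC, as CACCCCAC, which lies inside it, and as TCACNCCAC, which also matches it, and no window of these genes held any of the 3 spellings. Of all promoters, 0.362%, 2.43% and 0.883% held them. The LXR direct repeat, searched as AGGTCA, 4 free bases and AGGTCA, was in no window of these genes and in 0.0142% of all. A missing match says only that these letters are not in this window, and a match is no sign of binding.

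Library totals ran from 7836520 to 43043347 estimated counts, with the OA libraries of replicates 3 and 1 the shallowest. Of 8 hepatocyte markers, 7 were higher in DNL and 7 were lower in OA than in WT. Their summed level ran from 43033 to 44691 CPM (counts scaled to a common library total) in WT, from 76927 to 79046 in DNL and from 14049 to 16042 in OA. Most of that sum was APOB, at a mean of 30206 CPM in WT, 49004 in DNL and 8768 in OA. The markers moved unequally in DNL, where ALB was 1.2-fold and TF 11.5-fold higher than in WT. The sum of 5 cholangiocyte markers ran from 459 to 475 CPM in WT, from 844 to 954 in DNL and from 802 to 955 in OA, with CFTR at 0 in every library. Against WT, 3 of them were higher and 0 lower in DNL, while in OA KRT19 and KRT7 were higher and SOX9 was lower. Compared directly, SOX9 and EPCAM were higher in DNL than in OA, and KRT19 and KRT7 were lower. The sum of 6 stellate cell and fibroblast markers ran from 71.0 to 76.4 CPM in WT and from 90.1 to 91.7 in DNL, but from 93.6 to 1036 in OA. These markers did not move together, since 2 (COL3A1 and COL1A1) were higher and 2 (PDGFRB and LRAT) were lower in OA than in WT. Within OA, the collagen gene COL1A1 was at 19.3, 85 and 537 CPM in replicates 1 to 3, and COL1A2, which was at 0 in every WT and DNL library, was at 10.2, 41.1 and 259.6 CPM. COL1A1 stayed under 1 CPM in WT and DNL, so all 3 OA libraries stand apart in these collagens, replicates 2 and 3 the furthest. The OA counts are also given with replicate 1 as the only OA library, a fit that lowers this collagen signal but does not remove it. Macrophage and leukocyte, endothelial and adipocyte sums stayed at or under 53.3, 6.92 and 1.42 CPM, with CD163, MARCO, STAB2 and FABP4 at 0 throughout. The part of these markers in the results below was not tested beyond leaving OA replicates 2 and 3 out.

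Levels below are CPM after TMM scaling (edgeR's trimmed-mean normalisation), in the order of replicates 1, 2 and 3 of each group. A gene was called at an adjusted p under 0.05 in edgeR's quasi-likelihood test, with Benjamini-Hochberg adjustment over all 13636 genes tested. Replicates are summarised as mean ± SD over 3 libraries. In DNL nearly the whole sterol route was higher than in WT, led by the sterol carrier STARD4 (4.702-fold), the last reductase DHCR7 (4.41-fold), the farnesyl diphosphate synthase FDPS (4.36-fold), the thiolase ACAT2 (4.23-fold) and the oxidase MSMO1 (4.201-fold). PMVK, NUS1 and STARD3 were lower. In DNL against WT, 25 of the 30 genes were higher, 3 were lower and 2 were not called. Over all genes tested, 53.8% were called in this comparison, 27.1% higher and 26.8% lower. At least 2-fold rises were called for 21 members, against 7.21% of all genes, and no member fell by that much, against 5.07% of all genes. The members' median log2 fold change was 1.42, within a range from -0.73 to 2.23, and that of all genes was -0.02. The 3 DNL and 3 WT values did not overlap for 29 members, and the share over all genes was 64.7%. When libraries were scaled by their totals alone, the median of all genes shifted to -0.18, the share of calls that were higher moved from 50.3% to 32.2%, and the members' median was 1.25. Of the 19 members with a CCAAT box in a promoter window above, 17 were higher and 1 was lower in DNL than in WT, with a median log2 fold change of 1.57. Of the 6 members without it (CYP51A1, DHDDS, LBR, NPC1, PMVK and STARD3), 3 were higher and 2 were lower, with a median of 0.22. This split was made after the values were seen and is given without a test.

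In OA most of the sterol route was higher too, led by STARD4 (3.01-fold), IDI1 (2.77-fold), HSD17B7 (2.76-fold), MSMO1 (2.76-fold) and FDFT1 (2.695-fold). PMVK, GGPS1 and SOAT2 were lower. In OA against WT, 23 members were higher, 3 were lower and 4 were not called. All genes were called at 60.0%, 30.4% higher and 29.7% lower. Rises of at least 2-fold were called for 12 members, against 8.88% of all genes, and such falls for no member, against 7.95%. The median was 0.89 for the members, with a range from -0.85 to 1.59, and -0.03 for all genes. The groups did not overlap for 27 members, against 65.7% of all genes. With replicate 1 as the only OA library, whose spread was then taken from the other groups, 23 members were higher and 3 were lower, the median was 0.88, and no member's call in this comparison changed. Since DNL and OA share the WT libraries, 21 members that were higher in both comparisons are given as side-by-side calls and not as separate evidence. In bulk RNA, a change in the RNA made per cell and a change in the mix of cells cannot be told apart.

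**Figure D1:**
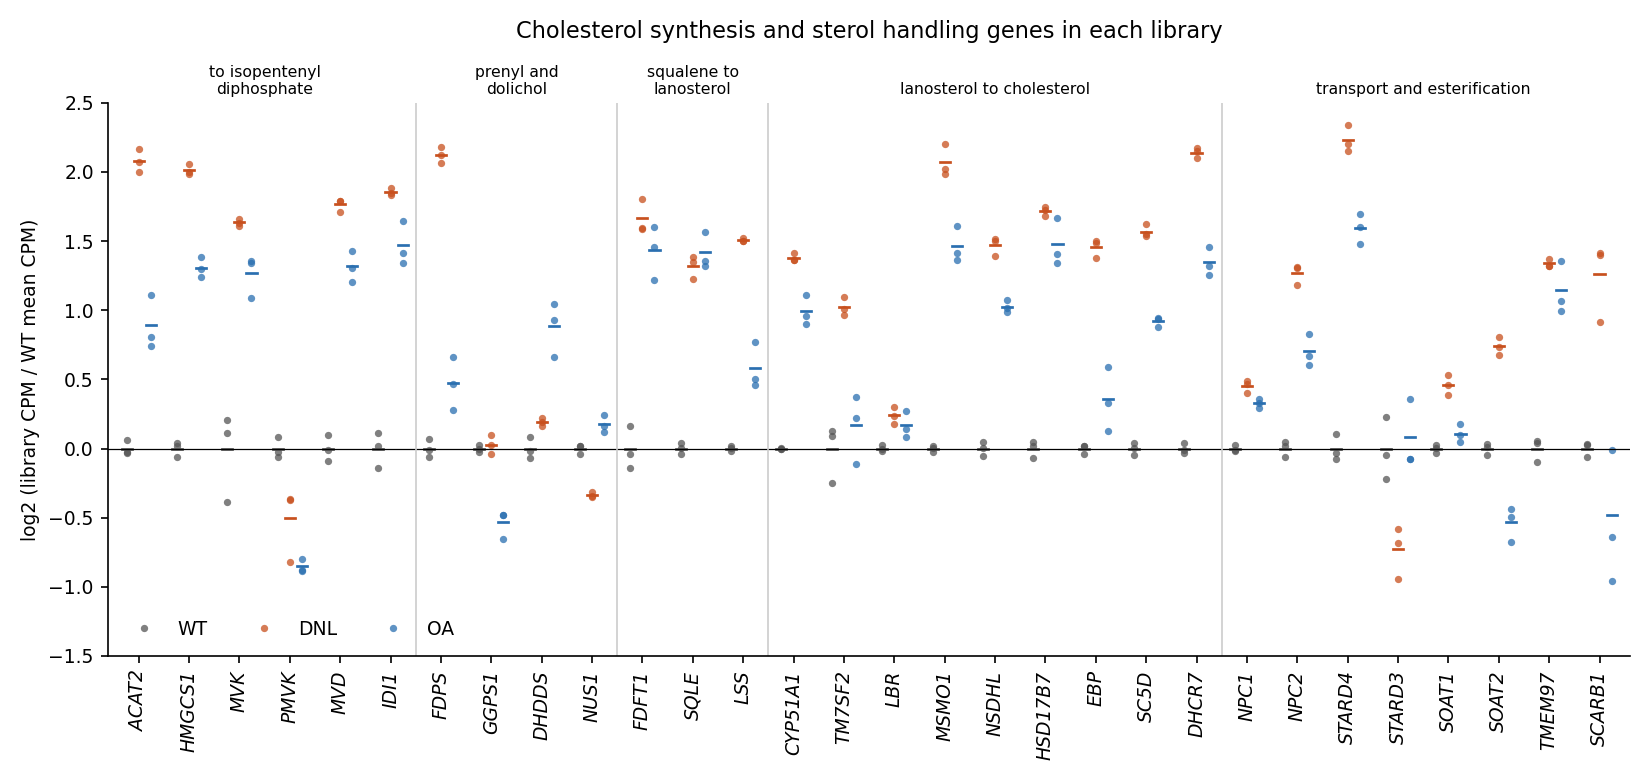
Each point is 1 library, plotted as log2 of its CPM over the WT mean CPM of the gene (vertical axis), for the 30 genes in pathway order (horizontal axis), and each bar is the group mean. Most DNL points (orange) lie above the OA points (blue), while PMVK, GGPS1, NUS1, STARD3, SOAT2 and SCARB1 each have a treated group whose mean lies below the WT mean.

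DNL and OA were also compared directly, although they differ in compounds and in duration. DNL was higher for 22 members, lower for 3 and not called for 5, in a comparison in which 62.8% of all genes were called, 31.9% higher and 30.9% lower. DNL was at least 2-fold higher for 5 members (ACAT2, FDPS, EBP, SOAT2 and SCARB1), against 10.1% of all genes. The median was 0.45 for the members and 0.01 for all genes, and the groups did not overlap for 25 members, against 66.2% of all genes. This comparison changed with the scaling. With library totals the median of all genes shifted to -0.22, the share of calls that were higher moved from 50.8% to 33.9%, and 17 members were then higher and 6 lower with a median of 0.21. The calls of MVK, IDI1, HSD17B7 and SOAT1 were lost in that setting. That of MVK (adjusted p = 0.0282) was also lost without DNL replicate 1 (0.0607), DNL replicate 3 (0.0698) or OA replicate 3 (0.0903). With replicate 1 as the only OA library, 21 were higher and 4 were lower, the calls of MVK and IDI1 were lost, and FDFT1 (higher) and SQLE (lower) were called.

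The summed counts of the 30 genes took 0.212% ± 0.00331 of all counts in WT, 0.461% ± 0.00887 in DNL and 0.394% ± 0.0256 in OA (SD, n = 3). The sum was 2.18-fold higher in DNL than in WT and 1.86-fold higher in OA than in WT. Every DNL library was above every OA library, and every OA library above every WT library. The two-sided exact permutation p was 0.1 for each comparison, the smallest that 3 against 3 can give. The 22 synthesis genes rose from 0.155% of counts to 0.371% in DNL and 0.316% in OA. The 8 transport and esterification genes went from 0.0567% to 0.0894% and 0.0786%.

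The first enzymes make isopentenyl diphosphate from acetoacetyl-CoA. Of these 6 genes, 5 were higher and PMVK was lower, both in DNL and in OA, with median log2 fold changes of 1.81 and 1.29. ACAT2, the cytosolic thiolase that makes acetoacetyl-CoA (chromosome 6, 159760328 to 159779055; the esterifying enzyme sometimes given the same name is SOAT2), was at 38.05, 35.6 and 35.8 CPM in WT, 164, 153 and 146 in DNL and 78.7, 63.9 and 61.04 in OA. Its DNL libraries were all above its OA libraries, and these above WT. ACAT2 rose by a log2 fold change of 2.08 in DNL (SE 0.085, adjusted p = 8.28e-10) and 0.89 in OA (SE 0.086, adjusted p = 1.62e-06), and it was 2.27-fold higher in DNL than in OA. HMGCS1, the cytosolic HMG-CoA synthase (chromosome 5, 43289395 to 43313512), was at 119, 113 and 121 CPM in WT, 469, 466 and 489.6 in DNL and 306, 277 and 289 in OA. Its groups were far apart beside a spread of a few percent within each. The log2 fold change of HMGCS1 was 2.02 in DNL (SE 0.047, adjusted p = 3.74e-12) and 1.31 in OA (SE 0.046, adjusted p = 1.44e-10).

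MVK, mevalonate kinase (chromosome 12, 109573255 to 109598117), was at 12.02, 8.497 and 12.8 CPM in WT, 34.5, 33.9 and 35.2 in DNL and 28.4, 28.2 and 23.6 in OA. WT replicate 2 was the low library of WT, and both treated groups lay wholly above WT. MVK rose by 1.63 in DNL (adjusted p = 3.66e-07) and 1.28 in OA (adjusted p = 3.32e-06) on the log2 scale. PMVK, the next kinase, which phosphorylates phosphomevalonate (chromosome 1, 154924734 to 154936991), went the other way, at 10.2, 9.21 and 9.47 CPM in WT, 7.45, 5.46 and 7.44 in DNL and 5.21, 5.54 and 5.23 in OA. No treated library reached the lowest WT value. PMVK was 1.41-fold lower in DNL (log2 fold change -0.49, SE 0.15, adjusted p = 0.0131) and 1.8-fold lower in OA (log2 fold change -0.85, SE 0.16, adjusted p = 0.000388). The DNL call of PMVK rests on single libraries, since its adjusted p was 0.0588 without DNL replicate 2 and 0.0611 without WT replicate 1. MVD, the decarboxylase that ends this stretch (chromosome 16, 88651935 to 88663161), rose from 28.1 ± 1.81 CPM in WT to 95.6 ± 2.94 in DNL (adjusted p = 4.94e-10) and 70.1 ± 5.56 in OA (adjusted p = 6.99e-09). IDI1, the isomerase of isopentenyl diphosphate (chromosome 10, 1039152 to 1049170), rose from 55.7 ± 4.86 CPM to 202 ± 3.62 in DNL (adjusted p = 3.08e-09) and 155 ± 17.7 in OA (adjusted p = 2.05e-08). Both were higher in DNL than in OA, by 0.45 for MVD (adjusted p = 7.98e-05) and 0.38 for IDI1 (adjusted p = 0.00106) on the log2 scale, but the call of IDI1 was lost in a pair of settings. Its difference was 0.15 with library totals (adjusted p = 0.123) and 0.21 with replicate 1 as the only OA library (adjusted p = 0.0534).

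**Figure D2:**
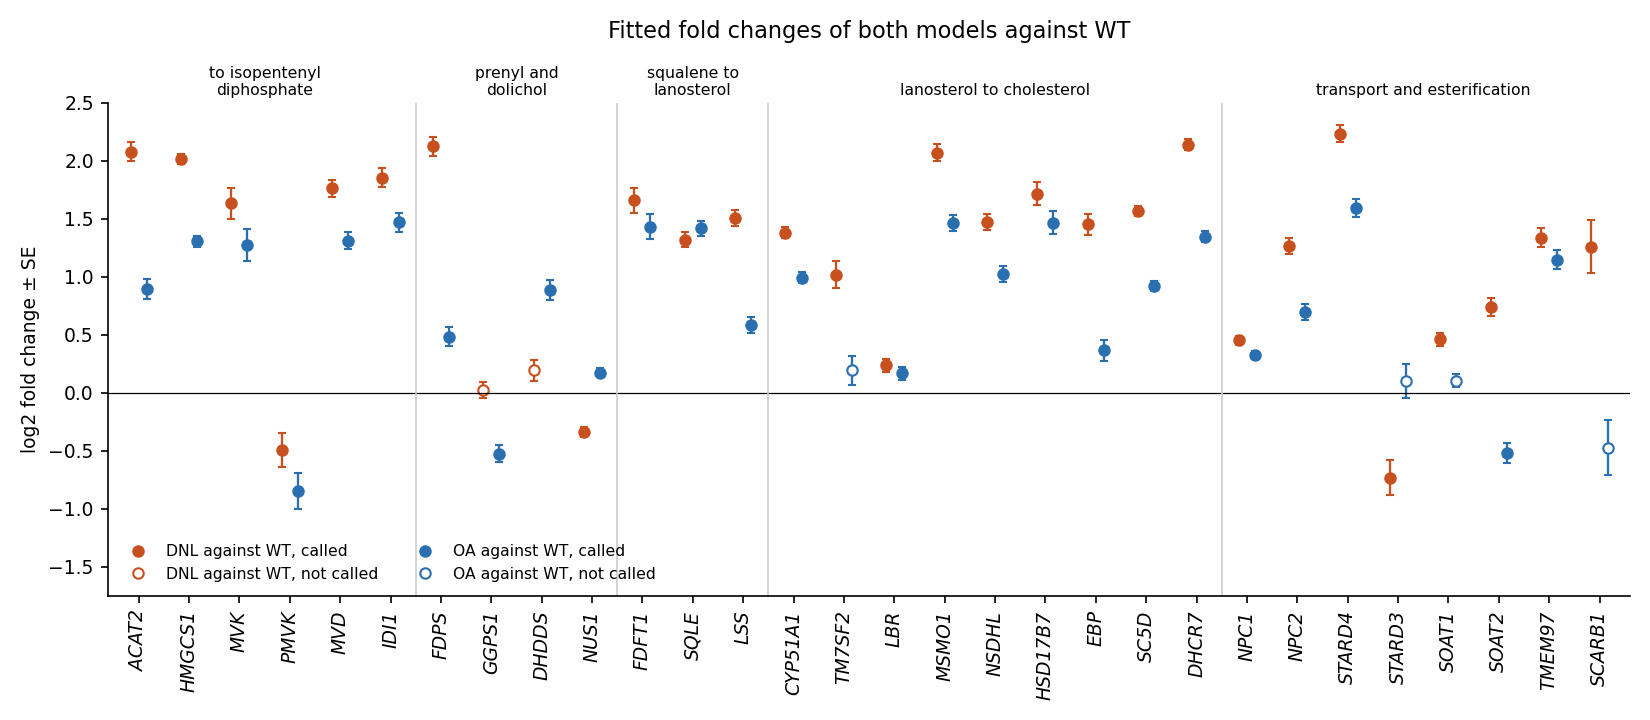
Fitted log2 fold changes against WT (vertical axis) of the 30 genes in pathway order (horizontal axis) for DNL (orange) and OA (blue), with bars for 1 SE. Filled points passed an adjusted p of 0.05, and open points (GGPS1 and DHDDS for DNL, TM7SF2, STARD3, SOAT1 and SCARB1 for OA) did not.

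Farnesyl diphosphate is the branch point, and the 4 genes around it did not move together. FDPS, which makes farnesyl diphosphate (chromosome 1, 155308748 to 155320666), was at 32.8, 31.6 and 34.6 CPM in WT, 144, 149 and 138 in DNL and 52.1, 45.6 and 39.9 in OA. The 3 DNL libraries were far above every OA library, and every OA library was above every WT library. FDPS was 4.36-fold higher in DNL than in WT (log2 fold change 2.12, SE 0.08, adjusted p = 2.71e-10), 1.398-fold higher in OA than in WT (log2 fold change 0.48, SE 0.082, adjusted p = 0.000206) and 3.12-fold higher in DNL than in OA (adjusted p = 1.64e-09). FDPS has 8 named pseudogenes in the annotation, and how the estimator divided reads among such copies was not tested.

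GGPS1 makes geranylgeranyl diphosphate, the lipid that anchors small GTPases (chromosome 1, 235327350 to 235344532). It was at 37.2, 36.8 and 38.1 CPM in WT, 38.1, 40.1 and 36.3 in DNL and 26.8, 26.9 and 23.8 in OA. Its WT and DNL values overlapped, and all OA values were lower. The log2 fold change of GGPS1 was 0.03 in DNL (SE 0.07, adjusted p = 0.764) and -0.53 in OA (SE 0.073, adjusted p = 3.87e-05), and the DNL value was -0.14 with library totals. GGPS1 shares 1422 exon bases on the same strand with TBCE and 138 on the opposite strand with ARID4B. DHDDS and NUS1 encode the catalytic and the accessory subunit of the enzyme that makes the chain of dolichol. DHDDS (chromosome 1, 26432282 to 26471294) was at 27.8, 26.9 and 29.8 CPM in WT, 32.9, 32.2 and 31.6 in DNL and 44.7, 53.7 and 58.1 in OA. The OA libraries were the highest, and OA replicate 1 was the lowest of them. DHDDS rose by 0.89 on the log2 scale in OA (SE 0.089, adjusted p = 1.99e-06), and its difference of 0.19 in DNL had an adjusted p of 0.0806, which was 0.024 when only DNL and WT were fitted and 0.0259 without OA replicate 1. NUS1 (chromosome 6, 117675502 to 117710640) was at 234, 234 and 226 CPM in WT, 182, 181 and 186 in DNL and 274, 251 and 259 in OA. The DNL libraries were below and the OA libraries above all WT libraries. NUS1 fell by 0.34 on the log2 scale in DNL (SE 0.041, adjusted p = 1.55e-05) and rose by 0.18 in OA (SE 0.041, adjusted p = 0.0026). Both subunits were thus lower in DNL than in OA, DHDDS 1.61-fold (adjusted p = 1.73e-05) and NUS1 1.43-fold (adjusted p = 2.13e-07).

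**Figure D3:**
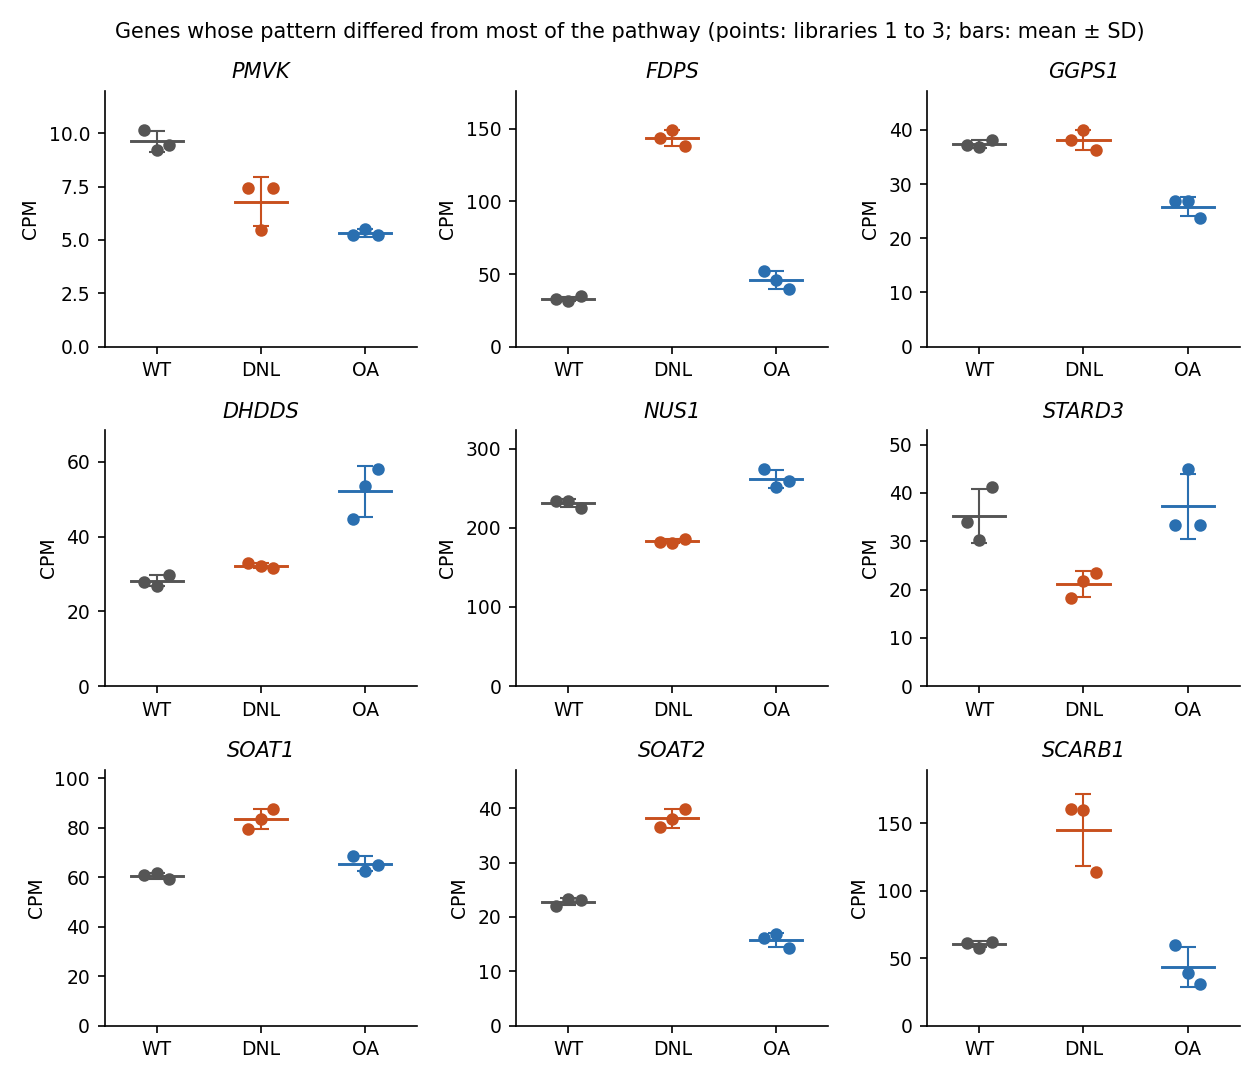
CPM (vertical axis) of PMVK, FDPS, GGPS1, DHDDS, NUS1, STARD3, SOAT1, SOAT2 and SCARB1 in WT, DNL and OA (horizontal axis), with a point per library and bars for the mean ± SD, chosen after the values were seen. FDPS, SOAT1, SOAT2 and SCARB1 are highest in DNL, NUS1 and STARD3 are lowest in DNL, DHDDS is highest in OA, and PMVK and GGPS1 are lowest in OA.

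The sterol branch proper begins with squalene. FDFT1, SQLE and LSS were higher in both models, with medians of 1.51 in DNL and 1.42 in OA. FDFT1, squalene synthase (chromosome 8, 11795573 to 11839309), was at 38.6, 31.2 and 33.5 CPM in WT, 104, 120.1 and 104 in DNL and 80.4, 94.8 and 105 in OA. DNL and OA overlapped in FDFT1, through DNL replicates 1 and 3 and OA replicate 3. The log2 fold change of FDFT1 was 1.66 in DNL (adjusted p = 1.75e-07) and 1.43 in OA (adjusted p = 5.18e-07), and the difference of 0.23 between DNL and OA (SE 0.10, adjusted p = 0.0779) turned to -0.004 with library totals and passed the test without OA replicate 3 (0.31, adjusted p = 0.0251). SQLE, squalene epoxidase, a rate-limiting oxygen-dependent step (chromosome 8, 124998497 to 125022283), was at 145, 142 and 138 CPM in WT, 369, 359.7 and 331 in DNL and 419, 354 and 361 in OA. Of the 21 members that were higher in both models, SQLE was the only one whose OA mean exceeded its DNL mean on the TMM scale. It rose by 1.32 in DNL (SE 0.064, adjusted p = 4.45e-09) and 1.42 in OA (SE 0.064, adjusted p = 2.20e-09). The difference of -0.10 between DNL and OA had an adjusted p of 0.198, but was -0.33 (adjusted p = 0.000437) with library totals and -0.25 (adjusted p = 0.00524) with replicate 1 as the only OA library. LSS, which closes the sterol rings to give lanosterol (chromosome 21, 46188141 to 46228824), was at 71.01, 72.1 and 72.9 CPM in WT, 204, 207 and 204 in DNL and 123, 99.2 and 102 in OA. LSS separated the models by 0.92 on the log2 scale (SE 0.068, adjusted p = 7.57e-08), with rises of 1.51 in DNL (adjusted p = 1.31e-09) and 0.58 in OA (adjusted p = 8.22e-06).

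From lanosterol to cholesterol, all 9 genes were higher in DNL and 8 were higher in OA, with medians of 1.47 and 0.99. CYP51A1, the demethylase of lanosterol (chromosome 7, 92112151 to 92134803), was at 178, 179 and 179.8 CPM in WT, 461, 461 and 476 in DNL and 386, 335 and 348 in OA. It was 2.603-fold higher in DNL (adjusted p = 1.33e-10) and 1.99-fold higher in OA (adjusted p = 2.42e-09), with no overlap among the groups. TM7SF2 and LBR both encode sterol reductases for the next step, and LBR is also an inner nuclear membrane protein that binds lamin and chromatin. TM7SF2 (chromosome 11, 65111845 to 65116384) was at 27.1, 20.9 and 26.5 CPM in WT, 50.04, 53.03 and 48.5 in DNL and 28.9, 32.1 and 23.04 in OA, so that DNL stood above both other groups and OA overlapped WT. TM7SF2 rose 2.03-fold in DNL (log2 fold change 1.02, SE 0.12, adjusted p = 1.36e-05), and the OA difference of 0.19 (SE 0.12) had an adjusted p of 0.192, which was 0.0331 without OA replicate 3. LBR (chromosome 1, 225401502 to 225428925) was at 94.6, 93.8 and 96.7 CPM in WT, 108, 112 and 117 in DNL and 115, 101 and 105 in OA. The LBR values moved little, by 0.24 in DNL (SE 0.055, adjusted p = 0.00271, and 0.07 with an adjusted p of 0.333 under library totals) and 0.17 in OA (SE 0.056, adjusted p = 0.0208). The OA call of LBR was lost without OA replicate 1 (adjusted p = 0.0913), WT replicate 1 (0.0503) or WT replicate 2 (0.0746).

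MSMO1, which oxidises the methyl groups at carbon 4 of the ring (chromosome 4, 165327623 to 165343160), was at 89.9, 91.8 and 92.6 CPM in WT, 362, 371 and 419.9 in DNL and 279.6, 235 and 243 in OA. Its lowest DNL library was above its highest OA library. MSMO1 rose 4.201-fold in DNL (adjusted p = 4.01e-10) and 2.76-fold in OA (adjusted p = 6.20e-09). NSDHL and HSD17B7 complete that demethylation as dehydrogenase and ketoreductase. NSDHL (chromosome X, 152830967 to 152869729) rose from 16.95 ± 0.6096 CPM to 46.98 ± 2.13 in DNL (adjusted p = 2.26e-09) and 34.5 ± 1.06 in OA (adjusted p = 6.69e-08). HSD17B7 (chromosome 1, 162790702 to 162812817) rose from 8.27 ± 0.339 CPM to 27.2 ± 0.647 in DNL (adjusted p = 1.25e-08) and 23.03 ± 2.83 in OA (adjusted p = 5.73e-08). The difference of 0.25 between DNL and OA for HSD17B7 (adjusted p = 0.036) fell to 0.02 with library totals (adjusted p = 0.885). Its adjusted p was 0.0522 with only DNL and OA in the fit, and the call was also lost in 5 of the 9 fits that left out a library, where the difference stayed between 0.20 and 0.27. EBP, the sterol isomerase (chromosome X, 48521158 to 48528716), was at 31.2, 31.3 and 29.96 CPM in WT, 86.2, 87.1 and 80.2 in DNL and 46.3, 38.7 and 33.7 in OA. Every OA library of EBP was above every WT library, and every DNL library was above every OA library. EBP rose 1.29-fold in OA (log2 0.37, adjusted p = 0.00379) and 2.74-fold in DNL (adjusted p = 2.39e-08), and DNL was 2.12-fold higher than OA (log2 1.09, SE 0.09, adjusted p = 2.63e-07). SC5D, the desaturase that follows (chromosome 11, 121292453 to 121308694), rose from 114 ± 3.31 CPM to 339 ± 11.1 in DNL (adjusted p = 1.20e-11) and 216 ± 5.28 in OA (adjusted p = 1.37e-09). DHCR7, which reduces 7-dehydrocholesterol to cholesterol (chromosome 11, 71428193 to 71452868), was at 119, 118 and 124 CPM in WT, 517, 543 and 534 in DNL and 330.3, 301 and 288 in OA. DHCR7 was 4.41-fold higher in DNL than in WT (SE of the log2 fold change 0.05, adjusted p = 4.05e-12), 2.54-fold higher in OA than in WT (adjusted p = 2.09e-10) and 1.73-fold higher in DNL than in OA (adjusted p = 1.34e-08).

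Levels of different genes were compared per kilobase, first of the principal transcript. In WT the highest members were CYP51A1 at 55.8 CPM per kilobase, NPC1 at 52.7, NUS1 at 49.5 and SC5D at 48.5. In DNL the order of levels was led by DHCR7 at 202, MSMO1 at 169, CYP51A1 at 145, SC5D at 144 and HMGCS1 at 136 CPM per kilobase. In OA it was led by SQLE at 128, DHCR7 at 116, MSMO1 at 111 and CYP51A1 at 111. The lowest WT levels were those of MVK at 4.73, HSD17B7 at 6.95 and PMVK at 7.51 CPM per kilobase. By this length PMVK had the lowest level in both models, 5.299 in DNL and 4.16 in OA. The order changed when all exons of a gene were joined to give its length. CYP51A1 at 49.9 and NUS1 at 49.5 then led WT, with NPC1 at 26.9 and SC5D at 20.5 further down. In DNL, MSMO1 at 133 and CYP51A1 at 130.0 were then above DHCR7 at 128, and in OA, CYP51A1 at 99.4 was above SQLE at 87.8. At the low end, STARD3 was at 4.11 against 5.299 for PMVK in DNL, and MVK at 4.13 against 4.16 in OA.

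**Figure D4:**
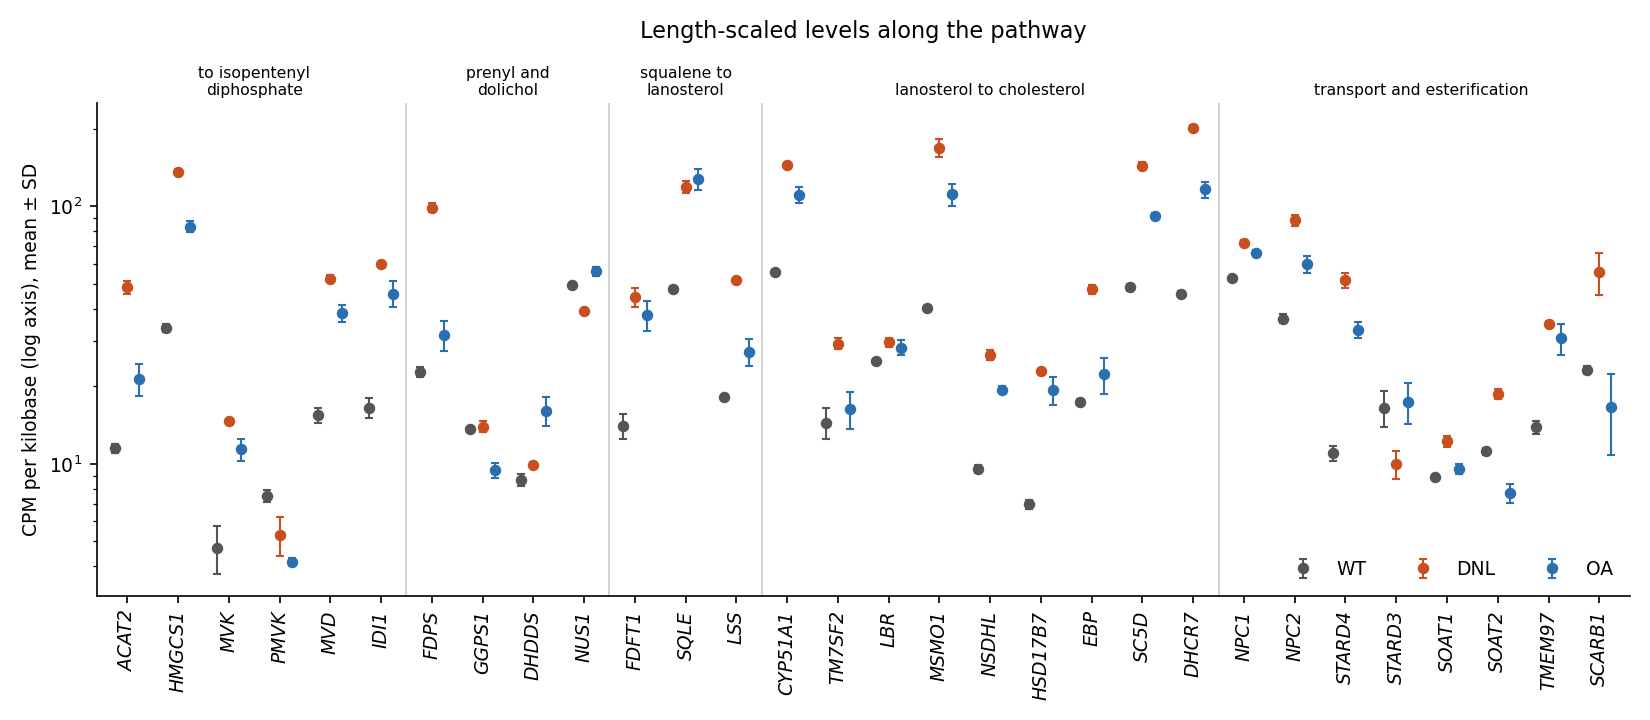
Mean ± SD of CPM per kilobase of the principal transcript (vertical log axis) of the 30 genes in pathway order (horizontal axis) in WT, DNL and OA. DHCR7 in DNL is the highest point at 202 CPM per kilobase, and PMVK in OA the lowest at 4.16.

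Genes of sterol transport and esterification gave a mixed picture. Of 8 genes, 7 were higher and 1 was lower in DNL, with a median of 1.00, and 4 were higher, 1 was lower and 3 were not called in OA, with a median of 0.22. NPC1 and NPC2 hand cholesterol out of lysosomes, NPC2 as a soluble carrier and NPC1 as the membrane protein. NPC1 (chromosome 18, 23506184 to 23586898) was at 269, 277 and 271 CPM in WT, 375, 359.9 and 382 in DNL and 333, 342 and 348 in OA. The shifts of NPC1 were small beside those of synthesis genes, 0.45 in DNL (SE 0.037, adjusted p = 3.56e-07) and 0.33 in OA (SE 0.037, adjusted p = 6.16e-06). Its DNL level was 0.13 above OA on the log2 scale (adjusted p = 0.00906), and with library totals the difference turned to -0.11 (adjusted p = 0.0274). NPC2 (chromosome 14, 74476192 to 74494177) was at 39.2, 36.3 and 38.4 CPM in WT, 94.1, 85.96 and 94 in DNL and 67.3, 57.8 and 60.2 in OA. NPC2 rose 2.41-fold in DNL (adjusted p = 6.84e-09) and 1.62-fold in OA (adjusted p = 1.78e-06), without overlap of the groups.

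STARD4, a soluble carrier that moves cholesterol between membranes (chromosome 5, 111496033 to 111512590), had the largest fitted rise of the 30 genes in both models. It was at 29.03, 28.2 and 31.9 CPM in WT, 132, 136 and 150.1 in DNL and 96.2, 82.7 and 90.4 in OA. Every DNL library was above every OA library, and every OA library above every WT library. STARD4 was 4.702-fold higher in DNL (log2 fold change 2.23, SE 0.074, adjusted p = 8.62e-11) and 3.01-fold higher in OA (log2 fold change 1.59, SE 0.075, adjusted p = 1.82e-09). STARD3, a membrane-bound relative at late endosomes (chromosome 17, 39637065 to 39663484), was at 34.04, 30.2 and 41.2 CPM in WT, 18.3, 21.8 and 23.5 in DNL and 33.3, 44.9 and 33.4 in OA. DNL lay below both other groups, which overlapped. STARD3 was 1.66-fold lower in DNL than in WT (log2 fold change -0.73, SE 0.15, adjusted p = 0.00176) and 1.78-fold lower than in OA (adjusted p = 0.000645). Its OA difference of 0.10 (SE 0.15, adjusted p = 0.578) turned to -0.08 without OA replicate 2.

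SOAT1 and SOAT2 esterify cholesterol for storage, SOAT2 mainly in hepatocytes and enterocytes. SOAT1 (chromosome 1, 179293714 to 179358680) was at 60.7, 61.8 and 59.4 CPM in WT, 79.4, 83.6 and 87.7 in DNL and 68.6, 62.6 and 64.8 in OA. The DNL libraries were all higher than the rest, by 0.46 against WT on the log2 scale (SE 0.057, adjusted p = 1.64e-05), and the OA difference of 0.11 (SE 0.058) had an adjusted p of 0.135, which was 0.0309 with library totals. SOAT2 (chromosome 12, 53103518 to 53124538) was at 22.1, 23.3 and 23.04 CPM in WT, 36.5, 37.99 and 39.9 in DNL and 16.2, 16.9 and 14.3 in OA. It was the only member that was called higher in DNL and lower in OA. SOAT2 was 1.67-fold higher in DNL than in WT (log2 fold change 0.74, SE 0.08, adjusted p = 4.86e-06) and 1.43-fold lower in OA than in WT (log2 fold change -0.52, SE 0.085, adjusted p = 0.00016). DNL and OA differed 2.39-fold (adjusted p = 3.40e-08).

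TMEM97, the sigma-2 receptor, which is known to bind NPC1 (chromosome 17, 28319095 to 28328685), rose from 35.6 ± 1.95 CPM to 90.01 ± 1.87 in DNL (adjusted p = 2.54e-08) and 78.8 ± 10.6 in OA (adjusted p = 9.91e-08). Its difference of 0.19 between DNL and OA (SE 0.081, adjusted p = 0.0576) was 0.30 without OA replicate 1 (adjusted p = 0.000902) and -0.04 with library totals. SCARB1, the receptor for high density lipoprotein (chromosome 12, 124776856 to 124882668), was at 61.5, 57.8 and 61.7 CPM in WT, 161, 159 and 114 in DNL and 59.8, 38.7 and 31.1 in OA. SCARB1 had the widest spread of the members in both models, with a coefficient of variation of 18.5% in DNL and 34.4% in OA. DNL was 2.396-fold above WT (log2 fold change 1.26, SE 0.23, adjusted p = 0.00235) and 3.33-fold above OA (adjusted p = 0.000428). The OA difference of -0.47 from WT (SE 0.24, adjusted p = 0.125) was -0.76 (adjusted p = 0.00804) without OA replicate 1, whose SCARB1 level lay within the WT range.

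Ratios of related genes within a library, per kilobase of the principal transcript, do not depend on scaling between libraries. They were formed for 8 pairs and 3 comparisons, 24 tests in all, and the smallest exact two-sided permutation p that 3 against 3 can give, 0.1, passes no threshold, so the values are given with their overlap between groups. The ratio of LBR to TM7SF2 was 1.59, 2.05 and 1.66 in WT, 0.979, 0.962 and 1.099 in DNL and 1.81, 1.43 and 2.07 in OA, lower in every DNL library than in any other. SOAT2 to SOAT1 was 1.26 ± 0.0399 in WT, 1.53 ± 0.00911 in DNL and 0.809 ± 0.0841 in OA (SD, n = 3), and the groups did not overlap. At the branch point, FDFT1 to GGPS1 went from 1.03 ± 0.114 in WT to 3.18 ± 0.148 in DNL and 4.06 ± 0.798 in OA, and FDFT1 to DHDDS from 1.61 ± 0.189 to 4.47 ± 0.392 and 2.36 ± 0.0277. Both ratios were higher in every treated library than in any WT library. DNL and OA overlapped in FDFT1 to GGPS1, from 3.04 to 3.34 in DNL and from 3.33 to 4.91 in OA, but not in FDFT1 to DHDDS. ACAT2 to ACAT1, the mitochondrial thiolase, went from 0.374 ± 0.0331 to 2.03 ± 0.179 in DNL and 0.7105 ± 0.0719 in OA. NPC1 to NPC2 went down from 1.44 ± 0.0794 to 0.818 ± 0.0205 in DNL and 1.11 ± 0.107 in OA. STARD4 to STARD3 had the widest range, 0.673 ± 0.0633 in WT, 5.22 ± 0.419 in DNL and 1.95 ± 0.441 in OA. In those last 3 ratios no group overlapped another. SQLE to FDFT1 was 3.44 ± 0.324 in WT, 2.7 ± 0.234 in DNL and 3.43 ± 0.787 in OA, and only WT and DNL did not overlap. The level of a ratio depends on the length used, while its order among libraries does not. With all exons of a gene joined, means rose above 1 for ACAT2 to ACAT1 in OA (1.67) and NPC1 to NPC2 in DNL (1.11). FDFT1 to GGPS1 in WT was then below 1 (0.675).

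**Figure D5:**
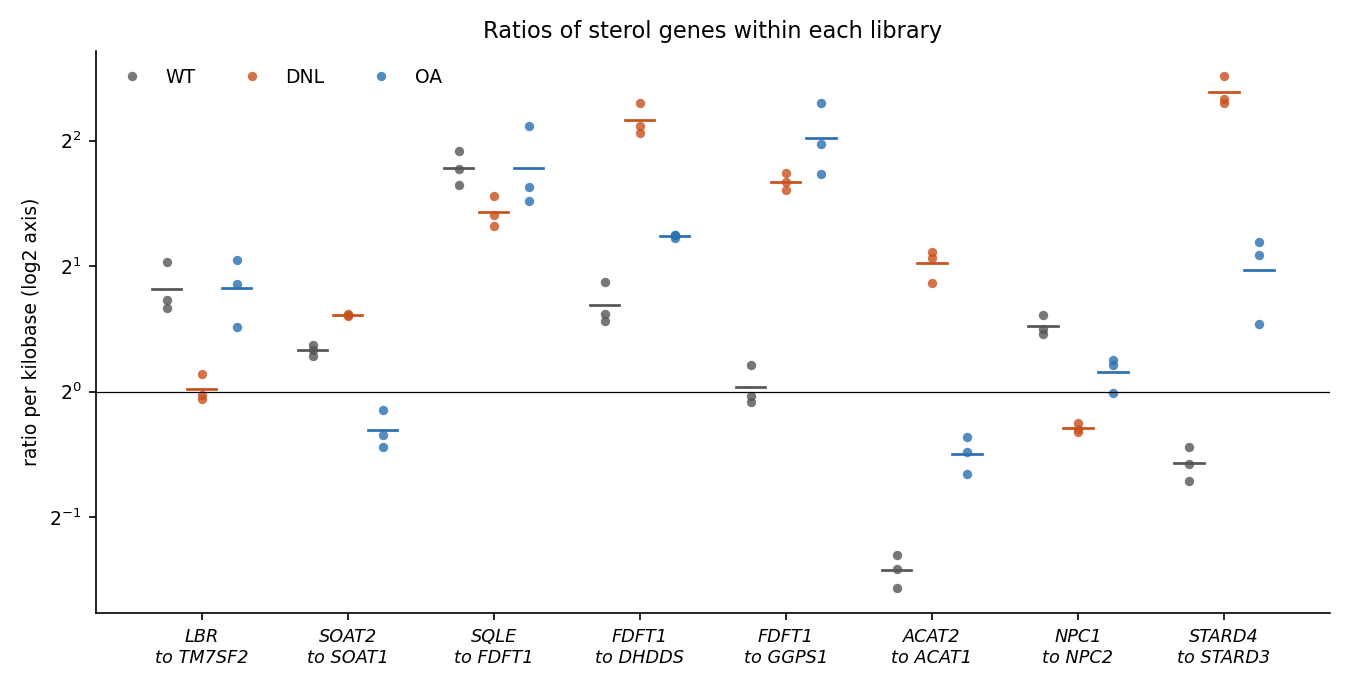
Within-library ratios, per kilobase of the principal transcript, of 8 gene pairs (horizontal axis) on a log2 axis (vertical), with a point per library and a bar for the group mean. STARD4 to STARD3 ranges from a mean of 0.673 in WT to 5.22 in DNL, and LBR to TM7SF2 is lowest in DNL at 1.013.

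The other genes of the pathway were taken from lists by function, and share the background percentages given above. Of 12 genes of sterol sensing and uptake, 10 were higher and 1 lower in DNL, and 5 were higher and 5 lower in OA. SREBF1, which encodes SREBP1, rose from 78.6 ± 1.44 CPM to 309.9 ± 11.1 in DNL (adjusted p = 2.98e-12) and fell to 57.05 ± 1.62 in OA (adjusted p = 1.73e-06). MYLIP, a ubiquitin ligase and known LXR target, rose from 4.53 ± 0.228 to 59.8 ± 3.31 CPM in DNL (adjusted p = 4.48e-12) and to 7.49 ± 0.334 in OA (adjusted p = 2.91e-05). These rises were 13.2-fold and 1.65-fold. MBTPS2, a protease that releases SREBP, fell from 56.9 ± 0.581 to 26.6 ± 3.54 CPM in OA (adjusted p = 1.89e-07).

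Of 6 genes of acetyl-CoA supply, 5 were tested. In DNL 3 were higher and 2 lower, and in OA 2 were higher and 1 lower. ACSS2, the cytosolic acetyl-CoA synthetase, rose from 30.3 ± 0.474 CPM to 175 ± 10.5 in DNL (adjusted p = 3.54e-12) and 56.3 ± 2.26 in OA (adjusted p = 3.77e-08), and ACLY, ATP citrate lyase, from 419 ± 8.24 to 1038 ± 32.7 (adjusted p = 8.92e-10) and 477 ± 43.5 (adjusted p = 0.00989). Of 16 genes that use prenyl groups and dolichol, 4 were higher and 1 lower in DNL, and 3 were higher and 6 lower in OA. DOLK, dolichol kinase, fell from 29.9 ± 0.1502 to 20.8 ± 3.44 CPM in OA (adjusted p = 0.00189).

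Of 18 genes of other sterol transfer and ester hydrolysis, 15 were tested, with 8 higher and 2 lower in DNL and 7 higher and 3 lower in OA. LIPA, the lysosomal acid lipase that frees cholesterol from its esters, rose from 134 ± 1.08 CPM to 362 ± 6.61 in DNL (adjusted p = 6.47e-11) and 185 ± 12.1 in OA (adjusted p = 1.75e-06). OSBP, the oxysterol binding protein that exchanges sterol at the Golgi, was at 117 ± 3.895 CPM in WT and 108 ± 2.66 in DNL (adjusted p = 0.143) and rose to 302 ± 27.2 in OA (adjusted p = 9.19e-10). NCEH1, a hydrolase of cholesteryl esters, fell from 75.5 ± 1.95 CPM to 63.2 ± 3.47 in DNL (adjusted p = 0.00269) and 62.4 ± 3.45 in OA (adjusted p = 0.0014). Of 7 sterol efflux genes, 5 were higher and 1 lower in DNL, and 1 was higher and 5 lower in OA. Of 9 genes of oxysterol formation and sterol-linked protein degradation, 7 were tested, with 3 higher and 0 lower in DNL and 3 higher and 2 lower in OA. CH25H and CYP46A1 of that list were at 0 in every library. RNF145, a ubiquitin ligase of the endoplasmic reticulum, rose from 32.2 ± 0.555 CPM to 64.2 ± 4.23 in DNL (adjusted p = 3.30e-06) and 58.2 ± 9.94 in OA (adjusted p = 1.06e-05).

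The replicates of the members lay closer together in WT and DNL than in OA. The median coefficient of variation over the 30 genes was 3.69% in WT, 4.34% in DNL and 9.02% in OA, and over all tested genes it was 6.29%, 7.46% and 9.93%. Within OA, replicate 1 had the highest value for 21 of the 30 members, and for 34.5% of all tested genes. OA replicate 1 was also the OA library with the lowest collagen levels given above, and the part of this in the results was not tested.

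Whether counting used the strand is not given in the sources used here, so reads of overlapping genes may be mixed. Of the 30 genes, 7 share exon bases with another gene of the table (ACAT2, MVK, GGPS1, TM7SF2, NPC1, NPC2 and TMEM97). Of these neighbours, MMAB, which shares 306 bases with MVK on the opposite strand, was at 11.1 CPM in WT, 21.8 in DNL and 5.28 in OA on average, a direction in OA opposite to that of MVK. TCP1, beside ACAT2, was at 297.7, 257 and 370.4 CPM, and RMC1, beside NPC1, at 20.4, 18.4 and 37.5. FDPS, NUS1, CYP51A1, HSD17B7 and TMEM97 have named pseudogenes. For the 19 members with neither, 16 were higher and 2 lower in DNL against WT, 14 higher and 2 lower in OA against WT, and 13 higher and 2 lower in DNL against OA.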

How the data were processed

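Total RNA of 9 HepG2 libraries was depleted of ribosomal RNA and made into stranded libraries, per the labels' protocols. The deposited table holds estimated counts per Ensembl gene, made by the authors with kallisto 0.48.0 after FastQC 0.11.9 on GRCh38, per the submitters' processing notes. Which annotation release and which strand setting kallisto used is not given in the sources. Symbols were matched for 19316 of 19317 genes, and coordinates and lengths come from GENCODE release 29. Sample titles gave the groups, and each sample's own treatment label gave its treatment, because the shared protocol field lists the DNL recipe even for WT and OA. Estimated counts were rounded, filtered with filterByExpr, TMM-scaled and fitted by edgeR 4.0.16 (glmQLFit and glmQLFTest, robust, R 4.3.3) in a single fit of all 9 libraries with group as the only factor, after a test on simulated data. SE was derived from the F statistic, and the coefficient of variation between replicates was 10.6%. Replicates differed by more than sampling noise (chi-square per degree of freedom 5.29 to 15.8). Alternatives used DESeq2 1.42.0 and limma 3.58.1, other scalings and filters, and left out libraries. All 30 members were named, with, from each further list, the 2 genes of smallest adjusted p per direction as candidates. The members and lists were chosen with earlier results of these data known, and the fit with OA replicate 1 alone was added after seeing the data. Some genes of the further lists are counted there but are not reported here by name.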

Additional observations from a re-analysis of the deposited data

How the results depend on the processing

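Counts and medians of the 30 genes were recomputed with other size factors, other filters, DESeq2, limma-voom, only the groups compared, without the 20 most abundant and mitochondrially encoded genes, and without each library. Leaving out a library gave 25 to 26 higher and 2 to 3 lower in DNL against WT, 22 to 24 and 3 to 4 in OA against WT, and 20 to 23 and 3 in DNL against OA, with medians of 1.41 to 1.43, 0.84 to 0.90 and 0.41 to 0.50. Differences in the share of counts then ran from 0.245 to 0.254, 0.168 to 0.192 and 0.0569 to 0.0812 percentage points. Scaling by library totals moved the median to 1.25 in DNL against WT and to 0.21 in DNL against OA, where 6 members were lower. With the abundant genes left out of the total, the share difference was 0.336 points for DNL against WT (0.249 with them) and 0.145 for DNL against OA (0.0667). The cause was not tested. The direction turned under library totals for GGPS1 in DNL against WT (-0.14) and, in DNL against OA, for FDFT1 (-0.0043), LBR (-0.16), NPC1 (-0.11) and TMEM97 (-0.043). It turned for STARD3 in OA against WT without OA replicate 2 (-0.076), without WT replicate 2 (-0.0014; the highest without a library was 0.22) and with replicate 1 as the only OA library (-0.077), and in that last setting for LBR (-0.035) and TMEM97 (-0.013) in DNL against OA. In OA against WT, the log2 ratio of LBR to TM7SF2, near 0, ran from -0.12 to 0.14 without a library and that of SQLE to FDFT1 from -0.20 to 0.10. Between samples of equal replicate number, correlations of deviations from the group mean were at most 0.106. Between unequal numbers they ran from -0.108 to 0.0574. Such weak values cannot show whether the samples were paired. With the replicate number as a block, 25, 23 and 23 members were higher and 3 lower in each comparison, with medians of 1.42, 0.89 and 0.45, and the block changed no other call than TMEM97 in DNL against OA (adjusted p = 0.0427). Depth was lowest in OA replicate 3, and the precision of low members such as PMVK is least there.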
